A study of Mus musculus with 5 samples.

Results

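Serpins are a family of protease inhibitors. Most members present an exposed loop as bait, and a serine protease that cuts the loop is trapped in a covalent, inactive complex. Some members block cysteine proteases instead, and a few are carriers or chaperones with no inhibitory activity. In the lung, serpins restrain the proteases of neutrophils, the clotting and fibrinolytic systems, complement and cytotoxic cells, and inherited lack of the clade A inhibitor alpha-1-antitrypsin is known for causing emphysema. The family was taken here as every row whose gene symbol starts with Serpin, which gave 63 of 23183 symbols in 9 clades, the branches of the family named by the letter after Serpin. Of these, 25 were measured, meaning a mean of at least 1 CPM (counts scaled to a common library size, with trimmed-mean-of-M-values factors) over the 5 libraries, among 14305 measured genes in all.

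RNA was sequenced from lung homogenates of wild-type female BALB/c mice, a single library for each of 5 groups. The control group is labelled as untreated. The PM10 group was given inhalable particulate matter through the nose on 4 occasions in 2 weeks. The PM10/OVA group also had the allergen ovalbumin, injected into the peritoneum and later given through the nose. The last 2 groups had particles, allergen and a drug in the peritoneum: CPX, labelled as an inhibitor of chitinase-1, at 6 times in 3 weeks, or Dex, the glucocorticoid dexamethasone, at 3 times within the final week. Exposed mice were killed 2 days after their last challenge, and no such time is given for control. Age, doses, any vehicle in controls and any pooling of animals remain not given in the sources used here. Where 5 values follow each other, their order is control, PM10, PM10/OVA, CPX and Dex. Without replicates there is no test between conditions and no replicate check of any difference. Folds are ratios of CPM with an exact 95% interval that covers counting error alone, and a gene counts as at least 2-fold higher or lower on log2(CPM + 1), a scale that understates differences of low genes. In a homogenate, fewer cells of a type and less RNA per cell cannot be told apart.

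Library totals ran from 11993222 to 16929068 counts, so that a single count was worth 0.0577 to 0.0841 CPM. Alveolar type 2 markers summed to between 20398 and 24746 CPM in every library, as lung tissue has. None of the 10 liver markers found in the files was measured, and Apoc3 was at 0 in all libraries; their summed level was 6.05 CPM in control and 1.6 to 3.41 CPM in the others. Heart-muscle markers summed to 3443 CPM in control against 267 to 712 CPM elsewhere, and fat markers to 384 CPM against 36.9 to 116 CPM.

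Of the 63 members, 15 had no count in any library and 23 had counts below the threshold. Those without a count were Serpina1f, Serpina3a, Serpina3j, Serpina5, Serpinb13, Serpinb3a to Serpinb3d, Serpinb6d, Serpinb6e, Serpinb9d, Serpinb9e, Serpinb9g and Serpini2. Several inhibitors made mainly by the liver were near the floor: Serpinc1 (antithrombin) had 2 counts in control, 1 in PM10 and 0 in the other libraries, and Serpinf2 (antiplasmin) had 0 to 4 counts. The highest members below the threshold were Serpina1e (mean 0.670 CPM) and Serpinb12 (0.638), and the lowest above it were Serpinb2 (1.30), Serpina10 (1.44) and Serpina3m (1.48). These last 3 were under 1 CPM in control and PM10 and passed through higher levels in PM10/OVA or CPX, so counts over the measured members are a description and not support for a difference.

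All Serpin rows together summed to 1316, 1782, 2092, 1683 and 1495 CPM. The library with allergen and no drug was the highest, and control the lowest. Most of the spread lay in the Serpina3 genes, a group of paralogs in clade A, which summed to 86.1, 273, 681, 476 and 279 CPM in the same order. Their share of all Serpin CPM was 6.54% in control and 32.5% in PM10/OVA. Clade B, the intracellular serpins, moved less, from 485 CPM in control to 601 CPM in PM10/OVA.

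**Figure D1:**
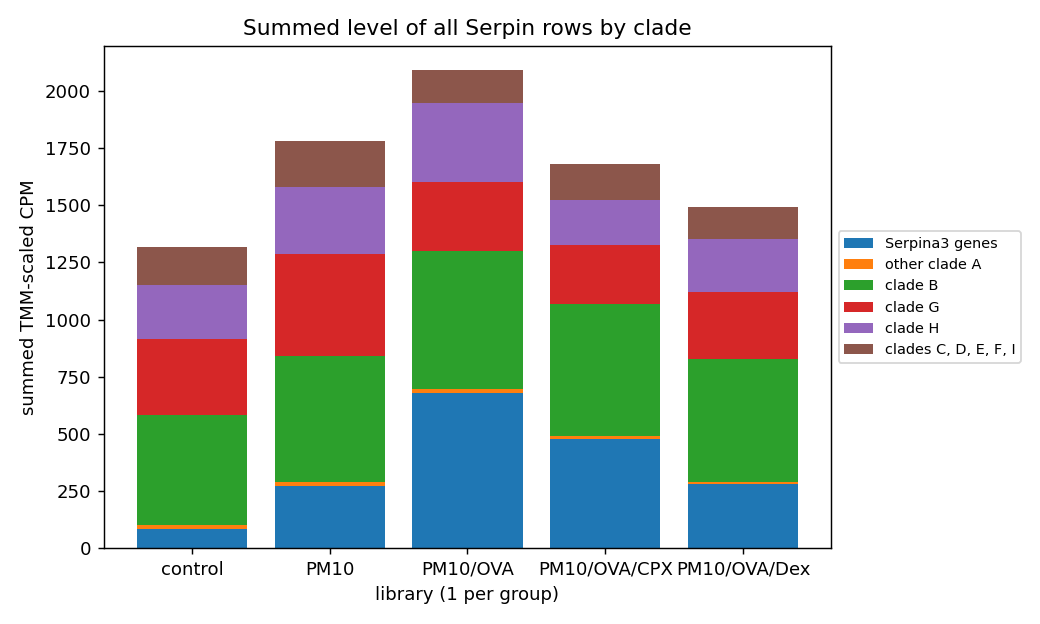
Summed TMM-scaled CPM of all 63 Serpin rows (vertical axis) in the 5 libraries (horizontal axis), with bar segments for the Serpina3 genes, the rest of clade A, clades B, G and H, and the other clades together. The Serpina3 segment grows from 86.1 CPM (control) to 681 CPM (PM10/OVA), while the clade B segment stays between 485 and 601 CPM.

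Across the 6 comparisons, 10 of the 25 measured members differed by at least 2-fold in at least 1, or 40.0%, where 9.83% of all measured genes did. Of these 10, 7 were Serpina3 genes; the other 3 were Serpina10, Serpinb2 and Serpinb10. PM10/OVA was the highest library for 11 of the 25 members (19.9% of all measured genes), and control was the lowest for 13 (26.3% of all measured genes). None was highest in Dex (16.4% of all measured genes).

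Against control, 3 members were at least 2-fold higher in PM10 (3.70% of all measured genes) and none was lower (2.04%), with a median log2 ratio of 0.32 against 0.00 for all measured genes. In PM10/OVA against PM10, 8 were higher (0.692%) and none lower (1.27%), with a median of 0.23 against 0.00. In PM10/OVA against control, 8 were higher (3.17%) and none lower (2.73%), with a median of 0.39 against 0.01. In CPX against PM10/OVA, none was higher (0.636%) and 1 was lower (0.762%), with a median of -0.13 against 0.00. In Dex against PM10/OVA, none was higher (1.20%) and 6 were lower (1.60%), with a median of -0.51 against -0.01. In Dex against CPX, none was higher (1.06%) and 4 were lower (0.734%), with a median of -0.10 against -0.01. With a pseudocount of 5 in place of 1, 3 members in place of 8 were higher in PM10/OVA against PM10, 5 in place of 8 against control, and 2 in place of 4 lower in Dex against CPX. These comparisons share libraries, and a high value in the PM10/OVA library alone raises its ratio to PM10 and lowers both drug ratios.

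**Figure D2:**
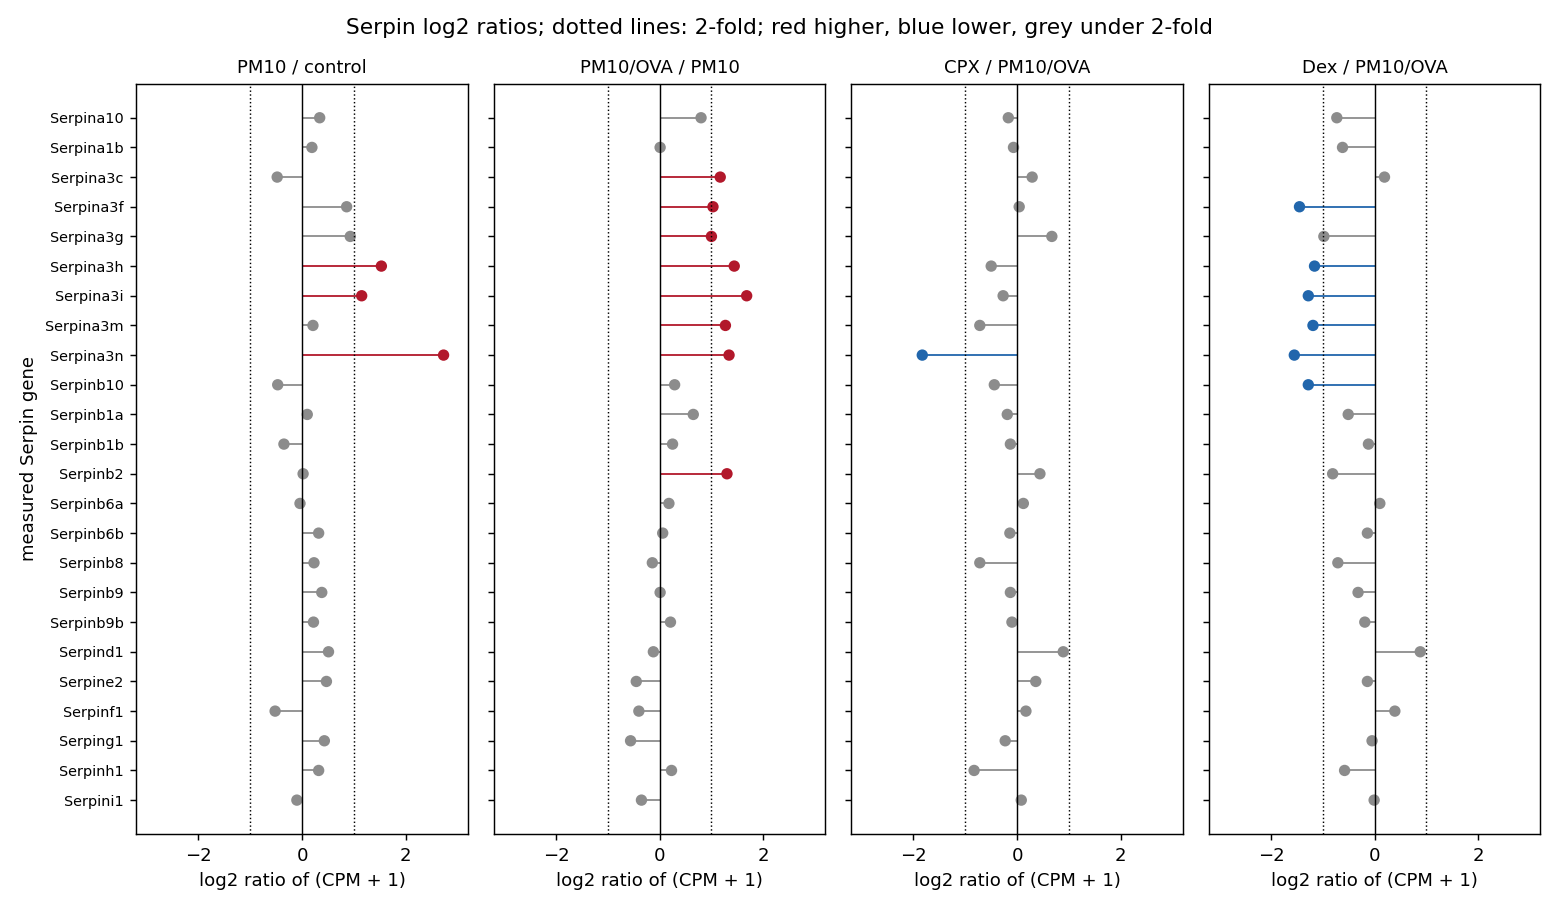
Log2 ratio of (CPM + 1) on the horizontal axis for 24 measured Serpin genes (rows), in 4 of the 6 comparisons (panels); dotted lines mark 2-fold, red is at least 2-fold higher, blue at least 2-fold lower and grey less. The 7 Serpina3 genes are all red in PM10/OVA against PM10, where Serpina3g lies on the line, and 5 of them are blue under Dex but only Serpina3n under CPX.

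The Serpina3 genes of mouse are an expanded set of relatives of human SERPINA3, antichymotrypsin, an acute-phase inhibitor of chymotrypsin-like proteases such as cathepsin G. All 11 Serpina3 rows lie within 302 kb of chromosome 12 (GRCm38, 104112724 to 104414329). Of these, 7 were measured: in genomic order Serpina3c, Serpina3f, Serpina3g, Serpina3h, Serpina3i, Serpina3m and Serpina3n. Genes at or near 0 lie among them, since Serpina3j had no count, Serpina3k had 0 to 4 counts, and Serpina3a and Serpina3b at the end of the locus had a single count in all. This subgroup was set apart after its values were seen, and its members share sequence. Of all 50-base words in its transcripts, Serpina3h shares 21.9% with other genes, Serpina3m 19.1%, Serpina3i 15.9%, Serpina3g 15.5%, Serpina3f 10.6%, Serpina3n 6.90% and Serpina3c 4.25%, so reads of the first 4 are the least certain. Serpina3m also overlaps Serpina3k in the annotation, and Serpina3h is annotated as a transcribed pseudogene in the reference strain.

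Sequence upstream of the start was available for 5 of the 7 measured Serpina3 genes, from RefSeq on GRCm38.p6. The 250 bases before the annotated start are shown because the genes lie together yet differ in their order over the libraries. Capitals mark matches, on either strand, to 4 motifs: STAT (TTCNNNGAA), NF-kB (GGGA, any 4 bases, then CC), the glucocorticoid receptor (ACANNNTGT) and C/EBP (TTGCNNAA).
Serpina3n (chr12:104406458-104406707, plus strand): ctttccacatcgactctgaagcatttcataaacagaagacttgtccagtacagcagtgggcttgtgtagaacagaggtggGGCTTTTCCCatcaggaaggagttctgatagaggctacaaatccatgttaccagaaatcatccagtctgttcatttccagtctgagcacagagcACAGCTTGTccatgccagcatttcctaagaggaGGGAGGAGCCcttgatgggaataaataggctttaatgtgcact
Serpina3c (chr12:104153873-104154122, minus strand): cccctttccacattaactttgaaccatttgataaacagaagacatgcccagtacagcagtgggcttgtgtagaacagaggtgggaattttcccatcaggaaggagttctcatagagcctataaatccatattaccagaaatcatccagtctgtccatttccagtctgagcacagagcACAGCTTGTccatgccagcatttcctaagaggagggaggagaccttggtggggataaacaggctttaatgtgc
Serpina3f (chr12:104214294-104214543, plus strand): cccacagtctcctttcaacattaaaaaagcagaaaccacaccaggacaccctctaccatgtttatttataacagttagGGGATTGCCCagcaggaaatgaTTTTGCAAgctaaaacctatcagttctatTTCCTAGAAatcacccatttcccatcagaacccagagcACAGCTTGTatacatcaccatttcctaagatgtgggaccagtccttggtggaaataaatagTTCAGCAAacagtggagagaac
Serpina3g (chr12:104235897-104236146, plus strand): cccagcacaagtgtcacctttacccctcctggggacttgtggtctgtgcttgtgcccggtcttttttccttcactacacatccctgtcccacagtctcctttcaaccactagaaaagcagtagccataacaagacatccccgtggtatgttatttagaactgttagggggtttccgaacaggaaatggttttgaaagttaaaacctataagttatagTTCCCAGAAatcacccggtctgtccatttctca
Serpina3i (chr12:104262872-104263121, plus strand): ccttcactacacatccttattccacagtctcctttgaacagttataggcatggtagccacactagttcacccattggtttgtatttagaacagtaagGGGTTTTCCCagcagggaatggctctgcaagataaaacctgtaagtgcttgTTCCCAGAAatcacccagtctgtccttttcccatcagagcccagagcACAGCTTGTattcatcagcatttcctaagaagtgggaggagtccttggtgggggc

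Serpina3n (chromosome 12, 104406729 to 104414329), the closest mouse counterpart of human SERPINA3 and an inhibitor of granzyme B and neutrophil elastase, had the widest range of the measured members. It stood at 17.6 CPM in control, 123 with PM10, 311 with PM10/OVA, 86.6 with CPX and 105 with Dex. PM10/OVA stood above every other library, and both drug libraries lay below PM10 but well above control. It was 6.94-fold higher in PM10 than in control (interval 6.14 to 7.88), 2.54-fold higher in PM10/OVA than in PM10 (2.40 to 2.69) and 17.6-fold higher in PM10/OVA than in control (15.7 to 19.9). Against PM10/OVA it was 3.59-fold lower with CPX (3.36 to 3.84) and 2.95-fold lower with Dex (2.78 to 3.15). The drug libraries differed from each other by 1.22-fold (1.12 to 1.32).

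Serpina3g (104236245 to 104241939), an inhibitor of lysosomal cysteine proteases known from T cells and activated macrophages, had another order. It stood at 33.3 CPM in control, 64.3 with PM10, 130 with PM10/OVA, 207 with CPX and 65.3 with Dex. Here the CPX library was the highest and the Dex library lay beside PM10. It was 1.59-fold higher with CPX than in PM10/OVA (1.5 to 1.69) and 3.17-fold lower with Dex than with CPX (2.92 to 3.43). Its ratio of PM10/OVA to PM10 was 2.02 (1.86 to 2.20), at the threshold, and on library totals alone it fell short of it.

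Serpina3h (104247905 to 104253669) was at 22.3, 65.9, 181, 128 and 80.3 CPM. Its neighbour Serpina3i (104263122 to 104269372) was at 3.34, 8.61, 29.7, 24.5 and 11.6 CPM in that order. Both were highest in PM10/OVA and higher in each exposed library than in control. They were 8.14-fold (7.32 to 9.08) and 8.88-fold higher (6.75 to 11.9) in PM10/OVA than in control. With Dex they were 2.26-fold (2.10 to 2.43) and 2.56-fold lower (2.11 to 3.12) than in PM10/OVA. With CPX the differences were smaller, 1.41-fold (1.33 to 1.5) and 1.21-fold lower (1.05 to 1.40).

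Serpina3f (104214544 to 104221129), of the same set, stood at 3.81, 7.70, 16.7, 17.2 and 5.47 CPM. It was level between PM10/OVA and CPX within counting error (1.03-fold, 0.854 to 1.23) and 3.06-fold lower with Dex (2.32 to 4.08). In PM10 it was 2.02-fold above control in CPM (1.46 to 2.82), which is 0.86 on log2(CPM + 1) and so not counted as 2-fold. Serpina3m (104338486 to 104394257) rested on 10, 10, 54, 21 and 11 counts. It was 4.11-fold higher in PM10/OVA than in PM10 (2.07 to 9.06) and 3.68-fold lower with Dex than in PM10/OVA (1.90 to 7.81). With CPX it was 2.03-fold lower in CPM (1.21 to 3.54), short of 2-fold on log2(CPM + 1).

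Serpina3c (104146382 to 104153870), the measured member at the other end of the locus and on the opposite strand, departed from the rest. It was at 5.02, 3.31, 8.71, 10.9 and 10.1 CPM, with PM10 as its lowest library. It was 2.63-fold higher in PM10/OVA than in PM10 (1.84 to 3.84). Neither drug library differed from PM10/OVA beyond counting error, at 1.25-fold for CPX (0.977 to 1.59) and 1.16-fold for Dex (0.900 to 1.49). It was the only measured Serpina3 gene with a level in Dex above that in PM10/OVA.

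**Figure D3:**
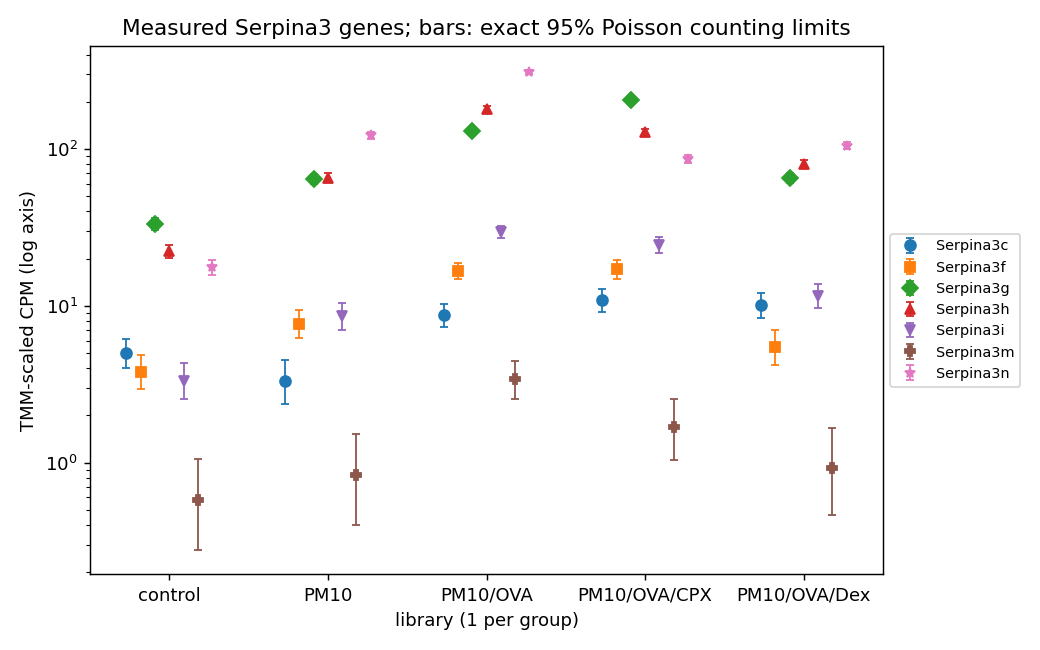
TMM-scaled CPM on a log axis (vertical) of the 7 measured Serpina3 genes in the 5 libraries (horizontal), with bars for exact 95% Poisson counting limits. Serpina3n runs from 17.6 CPM in control to 311 CPM in PM10/OVA, Serpina3g is highest in CPX at 207 CPM, and Serpina3c stays between 3.31 and 10.9 CPM.

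In PM10/OVA against PM10 all 7 measured Serpina3 genes were at least 2-fold higher (0.692% of all measured genes). Their median log2 ratio was 1.27 and the highest value 1.68. Of the measured Serpin genes outside the group 1 of 18 was, with a median of 0.03. The group was set apart after its values were seen, its members share sequence, and Serpina3m passed the filter through PM10/OVA and CPX. The contrast is therefore a description only. With a pseudocount of 5, 3 of the 7 were at least 2-fold higher, namely Serpina3h, Serpina3i and Serpina3n. Under Dex, against PM10/OVA, 5 of 7 were at least 2-fold lower (1.60% of all measured genes). Their median was -1.19, with Serpina3g at -0.98 just short of 2-fold. Under CPX 1 of 7 was at least 2-fold lower (0.762%), with a median of -0.27 and 3 of 7 above 0. Neutrophil markers moved with these genes between PM10 and PM10/OVA, since 6 of 7 measured markers were at least 2-fold higher (0.692%). Their summed level went from 216 to 647 CPM (186 in control, 562 with CPX and 310 with Dex, and no marker was at 0). This was not particular to neutrophils, since 5 of 7 mucous-cell markers and 2 of 3 eosinophil markers were also at least 2-fold higher. Acute-phase genes, a list that does not hold Serpina3 genes, summed to 1079, 2887, 4048, 1980 and 1985 CPM. Under CPX and Dex 6 of 11 measured were at least 2-fold lower each time (0.762% and 1.60% of all measured genes). The part of any of these lists in the Serpina3 values was not tested.

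Of the upstream windows printed above, those of Serpina3n and Serpina3c, at opposite ends of the measured group, were 92.7% identical over 247 aligned bases, the closest pair of the 10. The other pairs had 67.1% to 82.9% identity, over 152 to 234 aligned bases. The folds of these 2 transcripts were unlike: Serpina3n was 17.6-fold higher and Serpina3c 1.74-fold higher (1.32 to 2.30) in PM10/OVA than in control. The glucocorticoid receptor letters stood in 4 of the 5 windows as the same run, ACAGCTTGT, starting 73 bases before the start of Serpina3c, 76 of Serpina3n, 83 of Serpina3f and 55 of Serpina3i. Such letters occur in 5.84% of the 32851 windows of all genes. Letters of the STAT motif stood in Serpina3f, Serpina3g and Serpina3i (7.02% of all windows), those of the NF-kB motif in Serpina3f, Serpina3i and Serpina3n (17.6%) and those of C/EBP in Serpina3f (9.56%). Serpina3f has another annotated start, whose window (104214383 to 104214632) is not printed. There the glucocorticoid receptor letters start 172 bases before the start, and the NF-kB letters are absent. Because the windows are paralogs, shared letters are not independent of each other. A match is a run of letters and not a shown binding site.

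Elsewhere in clade A, Serpina1b, an alpha-1-antitrypsin gene and the main inhibitor of neutrophil elastase, stood at 10.1 CPM in control, 11.7 with PM10, 11.8 with PM10/OVA, 11.2 with CPX and 7.32 with Dex. Only the Dex library stood apart, 1.61-fold below PM10/OVA (1.24 to 2.10). Serpina1a to Serpina1e are related copies that share 29.5% (Serpina1b) to 74.2% (Serpina1c) of their 50-base words with other genes. Serpina1f shares none and had no count. All 6 together summed to 11.5, 13.1, 12.6, 13.8 and 7.99 CPM. Serpina10 (chromosome 12, 103614786 to 103631444), which with protein Z inhibits activated clotting factor X, rested on 10, 12, 39, 26 and 13 counts. It was 4.27-fold higher in PM10/OVA than in control (2.09 to 9.59).

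Of the proteases that clade A inhibits, the neutrophil serine proteases Elane, Prtn3 and Ctsg were not measured. Elane had no count in any library, Ctsg had 8 counts in PM10/OVA and none elsewhere, and Prtn3 had 2 to 14. Transcripts of these granule proteases are made in the bone marrow before neutrophils leave it. Factor X itself, F10, was at 7.15, 20.5, 41.9, 37.0 and 24.4 CPM, 5.86-fold higher in PM10/OVA than in control (4.83 to 7.16).

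**Figure D4:**
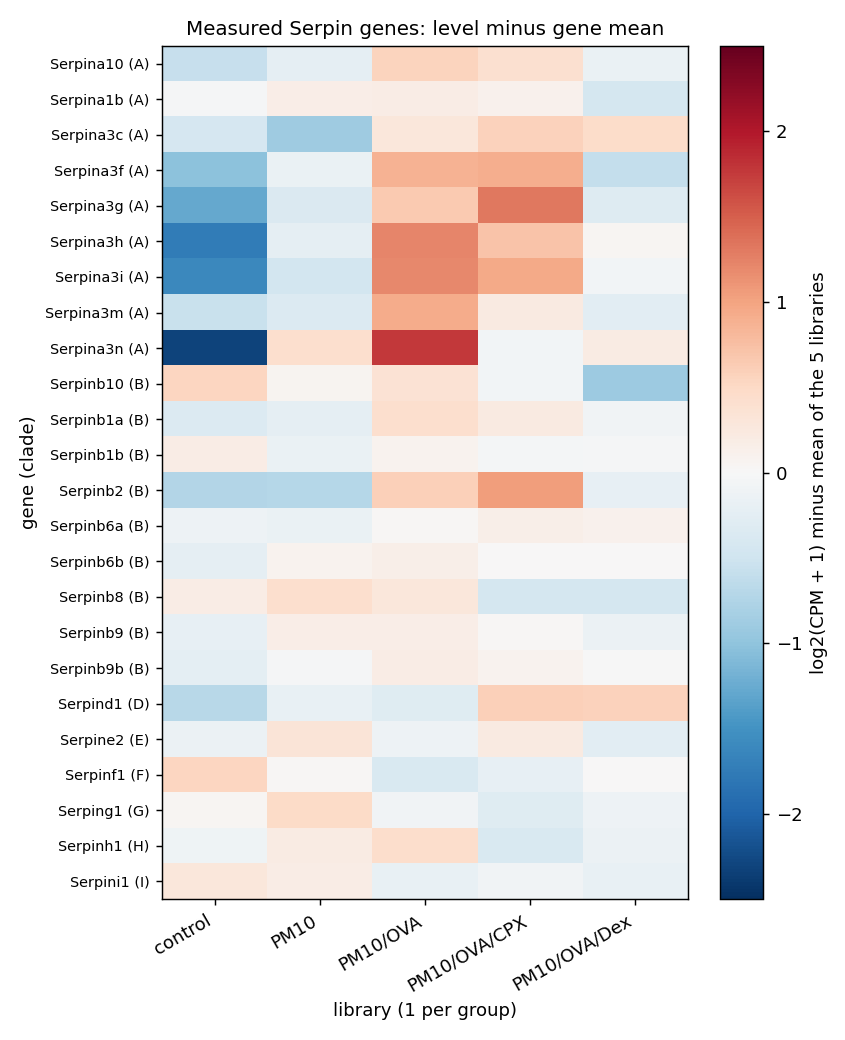
Log2(CPM + 1) of 24 measured Serpin genes (rows, clade in brackets) in the 5 libraries (columns), each minus its mean over the libraries; red is above and blue below the gene's own mean. Most Serpina3 rows are blue in control and red in PM10/OVA, while Serpinb6a, Serpinb6b and Serpinb9 stay close to 0.

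Clade B holds serpins that stay inside the cell and guard it against its own or invading proteases. Of 27 members 9 were measured. The most abundant were Serpinb6a, an inhibitor of cathepsin G and trypsin-like proteases, Serpinb9, the inhibitor of granzyme B, and Serpinb6b. Serpinb6a (chromosome 13, 33917918 to 34002794) was at 186, 181, 205, 223 and 219 CPM. Serpinb6b (chromosome 13, 32965209 to 32979067) was at 92.4, 115, 120, 109 and 109 CPM in that order. Serpinb9 (chromosome 13, 33003250 to 33017957) was at 156, 202, 204, 185 and 163 CPM. In these 3 genes the highest library was 1.23-fold, 1.30-fold and 1.31-fold above the lowest, the narrowest ranges among the 25 measured members.

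Granzyme transcripts had wider ranges than Serpinb9. Of 10 granzyme genes 2 were measured. Both were at least 2-fold lower in Dex than in PM10/OVA (1.60% of all measured genes). Gzmb was at 6.80, 7.46, 9.15, 5.59 and 2.61 CPM, 3.51-fold lower with Dex (2.37 to 5.35), and Gzma was 2.46-fold lower (2.14 to 2.84). Markers of cytotoxic T and NK cells summed to 48.9, 48.5, 47.4, 38.6 and 29.1 CPM, lowest with Dex, and their part in the granzyme values was not tested.

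Serpinb1a, which inhibits neutrophil elastase, proteinase 3 and cathepsin G and is abundant in neutrophils and macrophages, was at 26.6, 28.6, 45.5, 39.7 and 31.8 CPM. PM10/OVA was the highest library, 1.71-fold above control (1.52 to 1.93). Serpinb1b was at 1.91 to 2.71 CPM and Serpinb9b at 2.42 to 3.60 CPM, both on 57 counts or fewer per library. Serpinb8, an inhibitor of furin, was at 12.3, 14.6, 13.2, 7.59 and 7.65 CPM. Both drug libraries lay below the other 3, at 1.74-fold (1.36 to 2.24) and 1.72-fold below PM10/OVA (1.34 to 2.23), while Furin ran from 113 to 144 CPM.

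Serpinb2 (chromosome 1, 107511423 to 107535478), plasminogen activator inhibitor type 2, which activated macrophages make, rested on 4, 3, 33, 40 and 9 counts. The PM10/OVA and CPX libraries were high and the other 3 low. It was 8.38-fold higher in PM10/OVA than in PM10 (2.63 to 42.7) and 4.22-fold lower with Dex than with CPX (2.02 to 9.89). Serpinb10 (chromosome 1, 107529003 to 107549271), bomapin, a serpin of blood-forming and myeloid cells, is annotated as a polymorphic pseudogene in the reference strain. Serpinb10 was at 5.19, 3.48, 4.48, 3.03 and 1.26 CPM. It was lowest with Dex, 3.55-fold below PM10/OVA on 15 counts against 71 (2.01 to 6.67). The annotated spans of Serpinb2 and Serpinb10 overlap, and Serpinb2 shares 10.4% of its 50-base words with Serpinb10, so reads may be split between them. Neither gene kept its 2-fold differences with a pseudocount of 5.

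Serpinb3a to Serpinb3d, the mouse counterparts of squamous cell carcinoma antigen and inhibitors of cysteine proteases, had no count in any library. The cysteine cathepsins were all measured. In PM10 against control 5 of 10 were at least 2-fold higher (3.70% of all measured genes) and none was lower (2.04%). Ctsk was 9.87-fold higher (8.91 to 11) and Ctss, which acts in class II antigen presentation, 3.84-fold (3.69 to 4.0). In PM10/OVA against PM10, where the Serpina3 genes were higher, no cathepsin was at least 2-fold higher (0.692%) or lower (1.27%). The list's median log2 ratio there was -0.17. Markers of monocytes and interstitial macrophages, cells rich in cathepsins, were at least 2-fold higher in PM10 than in control in 8 of 8 (3.70%). Their summed level was 794 against 197 CPM, and their part in the cathepsin values was not tested.

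In clade E, Serpine2, protease nexin 1, which inhibits thrombin and plasminogen activators at the cell surface, was at 72.9, 101, 74.1, 95.4 and 67.0 CPM, highest in PM10. Serpine3 had at most 1 count in any library.

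Plasminogen activators and their partners also stayed within 2-fold. None of the 8 measured plasminogen activation genes was at least 2-fold different in any comparison (9.83% of all measured genes). Plau, urokinase, was highest in PM10/OVA at 47.0 CPM and ran from 30.2 to 34.9 CPM in the other libraries. Plat, tissue plasminogen activator, stayed between 35.8 and 47.6 CPM. Plg, plasminogen itself, had 0 to 3 counts.

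Serping1 (clade G, chromosome 2, 84765387 to 84775444), the C1 inhibitor, which blocks the starting proteases of complement and the contact system, had the highest mean level of the family both in CPM (326) and per kilobase of exon (140 CPM per kb, against 107 for Serpinh1 and 66.7 for Serpina3h). It was at 330, 446, 302, 258 and 292 CPM. PM10 was the highest library, 1.35-fold above control (1.30 to 1.40), and PM10/OVA was 1.48-fold below PM10 (1.42 to 1.54). Its target C1ra, a protease of the C1 complex, was likewise highest in PM10, at 149 CPM against 65.3 in control (2.28-fold, 2.11 to 2.46). C1rb was 2.25-fold higher (1.65 to 3.07). These were the only 2 of the 6 measured complement proteases at least 2-fold higher in that comparison (3.70% of all measured genes). Interferon-response genes were also highest in PM10, with 1700 CPM in sum against 332 to 571 elsewhere. In PM10 11 of 12 were at least 2-fold above control (3.70% of all measured genes). The part of interferon-response genes in the Serping1 value was not tested.

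Serpinh1 (clade H, chromosome 7, 99345376 to 99353239) is a collagen chaperone of the endoplasmic reticulum and inhibits no protease. It was at 236, 295, 347, 195 and 232 CPM. PM10/OVA was the highest library, 1.47-fold above control (1.41 to 1.53), and CPX the lowest, 1.78-fold below PM10/OVA (1.70 to 1.87), with Dex 1.49-fold below (1.42 to 1.56). None of 15 measured genes of collagen and its folding was at least 2-fold different in any comparison (9.83% of all measured genes). Their median log2 ratio was 0.05 in PM10/OVA against PM10, -0.37 with CPX and -0.30 with Dex. Single genes of the list differed in their order. Col1a1, a chain of type I collagen, was highest in PM10, at 495 CPM, and not in PM10/OVA, at 371 CPM. The folding genes P4hb and P3h1 were highest in PM10/OVA, as Serpinh1 was, at 708 and 26.1 CPM. P4ha1, also a folding gene, was highest in PM10, at 81.0 CPM.

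Serpinf1 (clade F, chromosome 11, 75409769 to 75422701), pigment epithelium-derived factor, a secreted protein of fibroblasts, fat and other stromal cells without inhibitory activity, was at 40.0, 27.5, 20.6, 23.4 and 27.4 CPM. Control was the highest library, 1.94-fold above PM10/OVA (1.70 to 2.22). Fat markers were also highest in control, with 7 of 7 at least 2-fold lower in PM10/OVA (2.73% of all measured genes). Their part was not tested. Fibroblast markers summed to 2680, 2992, 2068, 2370 and 2206 CPM, but single markers differed in their order. Their median log2 ratio was -0.07 in PM10 against control and -0.44 in PM10/OVA against control. In the latter, none of 8 was at least 2-fold higher (3.17%) and 2 were lower (2.73%), Dcn and Lum. The part of fibroblasts was not tested either. Serpind1 (clade D), heparin cofactor II, a thrombin inhibitor, rested on 20, 25, 29, 53 and 50 counts. Both drug libraries lay above PM10/OVA, at 2.31-fold (1.44 to 3.77) and 2.30-fold (1.43 to 3.77) in CPM, but below 2-fold on log2(CPM + 1). Serpini1 (clade I), neuroserpin, an inhibitor of tissue plasminogen activator, was highest in control, at 4.44 CPM, and at 2.94 to 4.06 CPM elsewhere.

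Among protease inhibitors outside the family, 24 were measured. In PM10 against control 5 were at least 2-fold higher (3.70% of all measured genes) and 1 was lower (2.04%). In PM10/OVA against control 7 were higher (3.17%) and 1 was lower (2.73%). In PM10/OVA against PM10 1 was higher (0.692%) and none lower (1.27%), with a median log2 ratio of 0.09. Slpi, the secreted inhibitor of neutrophil elastase made by airway epithelium and macrophages, was at 19.5, 52.5, 64.9, 242 and 138 CPM. It was 3.72-fold higher with CPX (3.47 to 4.0) and 2.13-fold higher with Dex (1.97 to 2.31) than in PM10/OVA, the opposite direction to Serpina3n in both drug libraries. Timp1, an inhibitor of matrix metalloproteinases, had an order like that of Serpina3n: it was at 2.36, 32.6, 108, 8.14 and 8.16 CPM. Of 7 measured mucous-cell markers, 5 were at least 2-fold higher (0.636%) and none lower (0.762%) with CPX against PM10/OVA. With Dex 3 of these markers were higher (1.20%) and 1 was lower (1.60%). Their summed level was 603 CPM in PM10/OVA, 6137 with CPX and 2184 with Dex, of which Clca1 alone made up 313, 5154 and 1633 CPM. Agr2 went the other way, at 26.1, 23.2 and 9.17 CPM in these libraries. The part of mucous cells in the Slpi value was not tested.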

How the data were processed

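Deposited values are raw counts by gene symbol, not normalized, in a table for each library, per the file headers and the values. Per the labels' protocols, 1.3 ug of Trizol-extracted total RNA went into each NEBNext directional library. TopHat, a spliced-read aligner, and the mm10 build are named in the submitters' processing notes. Versions, the counting tool, its annotation and its strand setting remain not given in the sources used here, so near-identical, overlapping and antisense genes are uncertain, as are reads of BALB/c alleles that differ from the reference strain.

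Counts were scaled to CPM with TMM factors over the 5 libraries (0.989 to 1.025; edgeR 4.0.16, R 4.3.3). Ratios were taken on log2(CPM + 1). Fold intervals are exact conditional Clopper-Pearson intervals at 95%. They cover counting error only. No test or p-value was computed, since edgeR's quasi-likelihood test needs replicates. The ratio code was tested on simulated data. Coordinates, exon lengths and shared 50-base words come from GENCODE M21 (GRCm38, the same assembly as mm10).

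Members described in full were those at least 2-fold different in any comparison and the 8 with the highest mean; others are given by level, range or name. The values of 1 measured member are not reported here; it stays in the counts, medians and sums. The members, gene lists and this rule were chosen with earlier results of these data known. Upstream windows were found for 19 of the 25 measured members. Alternatives were DESeq2 (1.42.0) size factors, library totals, pseudocounts of 0.25 and 5, no filter, and a mean of at least 5 CPM.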

Additional observations from a re-analysis of the deposited data

How the results depend on the processing

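With DESeq2 size factors, all 30 of the 2-fold differences of named members remained, and with library totals 29 did (Serpina3g in PM10/OVA against PM10 was at 0.98). With a pseudocount of 0.25 all 30 remained and others were added: 1 member, Serpind1, was higher with CPX and with Dex against PM10/OVA, where both counts had been 0. Serpina10 was added in PM10/OVA against PM10 (1.12), Serpina10 (-1.01) and Serpinb2 (-1.21) with Dex against PM10/OVA, and Serpinb10 with Dex against CPX (-1.12). With a pseudocount of 5, 17 of the 30 remained: 3 members were higher in PM10/OVA against PM10 (8 before, and 3 in place of 7 Serpina3 genes), 5 in PM10/OVA against control (8 before) and 2 lower with Dex against CPX (4 before), and the median log2 ratio of PM10 against control was 0.18. A mean of at least 5 CPM left 17 members, of which 5 were higher in PM10/OVA against control. Without a filter the medians over 48 members were 0.02 for PM10 against control, 0.09 for PM10/OVA against control and -0.09 for Dex against PM10/OVA. Other counts stayed within 1.5 times and none of these log2 ratios of named members changed sign where it had been at least 2-fold. The counts of Serpina3 genes alone were added after seeing the data. No paired analysis was possible because each group has 1 library. Genes with under 60 counts per library, such as Serpina3m, Serpina10 and Serpinb2, have intervals several-fold wide.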

Other observations

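Mast cell and basophil serine proteases, among which chymases are known targets of antichymotrypsin-type serpins, were at low levels. Of these, 5 of 8 were measured, none at a mean above that of Cma1. Cma1, a chymase, was at 6.46 CPM in control and 2.65 CPM with PM10, which was 2.44-fold lower (1.63 to 3.73). Mcpt1, a chymase of mucosal mast cells, had 4, 1, 4, 30 and 34 counts in control, PM10, PM10/OVA, CPX and Dex, and Mcpt2, its close relative, had 3, 0, 12, 27 and 33. Both drug libraries thus held more counts of these mucosal forms than the other 3. Mcpt1 and Mcpt2 passed the filter only through the drug libraries, so this is a description and not support for a difference. The 4 measured mast-cell markers had a median log2 ratio of -0.67 with CPX and -0.65 with Dex against PM10/OVA. Tpsb2, a tryptase, had 71, 15, 7, 14 and 25 counts, highest in control. Mcpt8, of the same list but below the threshold, had another order, with 2, 3, 47, 5 and 0 counts, highest in PM10/OVA.

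Of 11 measured clotting genes, the factor VII gene F7 was 2.87-fold higher with PM10 than in control (2.48 to 3.33), at 45.0 against 15.7 CPM. F13a1, the A chain of the fibrin-crosslinking factor XIII and abundant in some macrophages, was lower with CPX, at 20.8 CPM against 45.6 CPM with PM10/OVA (2.20-fold, 1.90 to 2.54). With Dex it was at 44.4 CPM, near its PM10/OVA level.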
